A study of Mus musculus with 10 samples.

Results

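Amino acid transporter genes were examined in mouse embryonic stem cell (ESC) lines whose mothers had been fed a low protein diet (LPD) or a normal protein diet (NPD). The genes were chosen by name from 6 solute carrier families, Slc1a, Slc3a, Slc7a, Slc36a, Slc38a and Slc43a, without use of their values. Earlier results of these data were known when these genes were chosen. The deposited table listed 38 of them among 20206 genes. Of the 38, 28 had a mean normalised value of at least 10 over the lines and were tested, among 14354 genes tested in all. Another 3 genes of these families, Slc7a10, Slc7a12 and Slc7a13, were not analysed here.

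C57Bl/6 females aged 7 to 9 weeks were mated with males of the same strain and given LPD (9% casein) or NPD (18% casein) from the morning of the plug to embryonic day 3.5. Blastocysts were then collected and ESC lines derived on fibroblast feeders, in medium with leukaemia inhibitory factor and serum replacement. RNA was sequenced from 5 LPD lines (1, 4, 6, 20 and 40) and 5 NPD lines (8, 15, 21, 36 and 51), grown without feeders. The lines were wild-type, labelled male, and each came from a different mother, so that p-values measure the spread between lines and mothers.

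Amino acids cross the plasma membrane through carriers that differ in substrate and driving force. Slc1 carriers take up glutamate or exchange neutral amino acids, Slc38 carriers bring in glutamine and other small neutral amino acids with sodium, and Slc36 carriers move amino acids together with protons. Slc7 holds the carriers of arginine and lysine and the light chains of heteromeric transporters, which reach the cell surface bound to a heavy chain of the Slc3 family. Slc43 carriers pass large neutral amino acids without an ion gradient. In ESCs and preimplantation embryos, uptake of leucine, arginine and glutamine feeds protein synthesis and growth signalling through mTOR. When amino acids run short, the transcription factor Atf4 raises several of these genes through the C/EBP-Atf response element, a composite motif in promoters or introns.

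The core of this element, TGATGNAA, was searched on both strands in the promoter windows of the RefSeq table (GRCm38.p6), each from 250 bases before to 50 bases after a start site. Of 32851 promoters, 1304 (3.97%) held a match and 23 (0.0700%) held at least 2. The table had 38 promoters for 29 of the 38 transporter genes, and 4 of them (10.5%), from 3 genes, held a match. Slc7a11, which encodes the cystine/glutamate exchanger, had 2 matches facing each other, between 66 and 40 bases before its start site. Slc1a4, an exchanger of serine, alanine and cysteine, had 1 match across its start site, on the reverse strand. Slc7a7, a light chain for arginine and leucine exchange, had 1 match 141 bases before a start site and 1 across it, and the latter also lay in the window of its second start. Of the 8 genes listed here as known Atf4 targets, 5 had a promoter in the table and 2 of those, Slc7a11 and Slc1a4, held the letters. The sequences around the matches are shown because they are the letters that Atf4 is known to read, with the match in capitals, on the strand of the gene.
Slc7a11, chr3:50443649-50443683, minus strand: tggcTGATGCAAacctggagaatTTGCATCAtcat
Slc1a4, chr11:20332699-20332728, minus strand: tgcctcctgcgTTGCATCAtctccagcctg
Slc7a7, chr14:54418067-54418096, minus strand: ccgcttgggctTGATGAAAggttcactggg
Slc7a7, chr14:54417927-54417956, minus strand: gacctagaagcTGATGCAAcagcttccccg
A match describes the letters and was not measured as a bound site. Slc1a5, Slc7a2, Slc7a3, Slc7a4, Slc7a5, Slc36a2, Slc38a1, Slc38a3 and Slc43a3 had no entry in the table.

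The ESC markers Nanog, Pou5f1, Sox2, Esrrb, Zfp42, Tfcp2l1, Tdgf1 and Dppa5a were high in every line, with summed values of 88813 to 123278. Depth was 20408455 to 23183285 read equivalents in the NPD lines and 21896130 and 24111814 in LPD lines 1 and 20, but 5845641, 12348168 and 11248926 in LPD lines 4, 6 and 40. Ddx3y, a Y-linked gene, had a value of 174 in LPD line 4, of 7.70 in NPD line 15 and of 1110 to 1493 in the other 8. X-linked genes of NPD line 15 were shifted upwards, the median by 0.49 on the log2 scale. By both measures NPD line 15 went against its label as male. LPD line 4 stood between it and the other lines in Ddx3y only, with its X-linked median shifted by 0.00138. The main results are also given without LPD line 4 and NPD line 15. Fibroblast markers summed to 5484 in NPD line 15, 3251 in LPD line 6, 2059 in NPD line 8 and at most 1079 in the other 7 lines. Of the 8 fibroblast markers, Postn and Dcn had means under 10 and Lum was listed at 0 in 7 lines. Primitive endoderm markers ran from 1717 in NPD line 15 and 2434 in LPD line 6 to 14611 in LPD line 1. Trophectoderm markers were 10977 in LPD line 6 and 3096 to 6513 in the others. Of these markers, Krt8 (4577), Krt18 (3053), Krt7 (638) and Gata3 (265) were highest in LPD line 6. Cdx2, Elf5, Eomes and Tfap2c were highest in other lines.

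Levels were compared between genes per kilobase of the longest protein-coding transcript. The median coding transcript was much shorter for some genes, 647 against 2813 bases for Slc3a2 and 1233.5 against 7179 for Slc7a1. For Slc7a5 both were 3517 bases. The order, shares and ratios per kilobase given here and below depend on this choice, and other lengths were not tried. Slc3a2, the heavy chain, had the highest mean level, 1994 ± 382 per kilobase (SD, n = 10 lines). It was followed by Slc7a5, the light chain that carries leucine and other large neutral amino acids (1906 ± 271), and Slc1a5, an exchanger of glutamine and other neutral amino acids (1206 ± 103). Slc38a2, the sodium-coupled carrier that cells raise when starved of amino acids (1042 ± 209), and Slc7a3, a carrier of arginine and lysine (852 ± 191), came next. These 5 genes held 69.4% of the summed level of the 38 genes. Slc38a1, Slc38a10, Slc7a1, Slc38a6 and Slc7a7 had mean levels of 523 to 357, and Slc7a6, Slc38a7 and Slc1a4 of 222 to 159. From Slc43a1 down to Slc7a2, 6 genes lay between 99.8 and 44.2, and from Slc7a8 down to Slc7a11, 9 genes lay between 21.8 and 2.77. Of the 27 pairs of neighbours in this order, 25 had ranges over the lines that overlapped. The other 2 gaps lay between Slc7a5 and Slc1a5 and between Slc7a2 and Slc7a8.

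**Figure D1:**
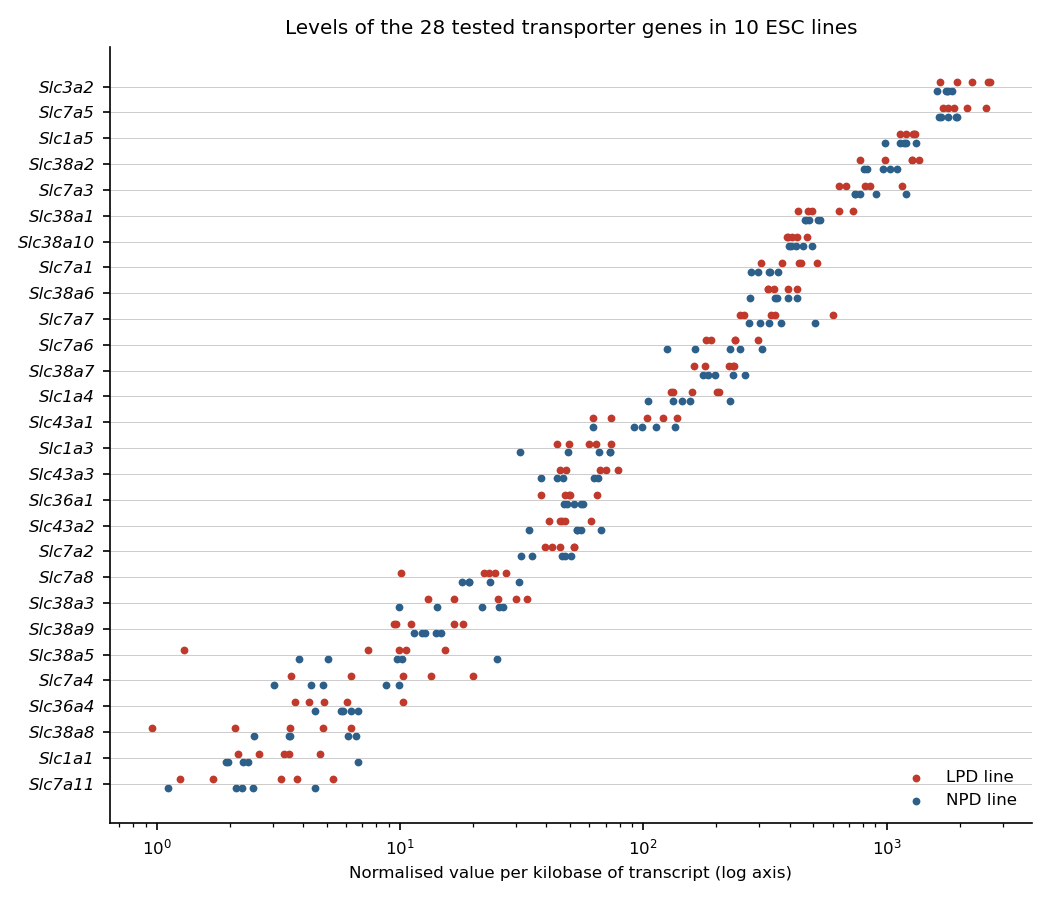
Normalised value per kilobase of transcript (log axis) for the 28 tested transporter genes, 1 point per line, LPD in red above NPD in blue, in order of mean level. Slc3a2 and Slc7a5 lie above all others, and the points of the diets overlap in every gene.

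The 10 genes below the filter were Slc1a2, Slc1a6, Slc1a7, Slc3a1, Slc7a9, Slc7a14, Slc7a15, Slc36a2, Slc36a3 and Slc38a11. Slc3a1 and Slc7a9 encode the pair that takes up cystine in kidney and gut, and the former had values of 0 to 7.03, the latter of 1.65 to 19.3. Slc1a2 encodes the main glutamate carrier of astrocytes and is described further on.

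The study asked which genes differ between LPD and NPD ESC lines. No transporter gene passed Benjamini-Hochberg adjustment over the 14354 genes (limma, smallest adjusted p = 0.852 for Slc7a1, largest 0.997), nor did any gene of the table at 0.1 (0.0%). The study tested single transcripts instead, and reported some that passed at a false discovery rate under 0.1. At an unadjusted p under 0.05, 2 of the 28 (7.14%) were higher in LPD, Slc7a1 and Slc3a2, against 2.84% of all genes tested. In the lower direction there were 0 of 28, against 2.18% of all genes. Groups without overlap were found for 0 of the 28, against 1.02% of all genes. The mean log2 value was higher in LPD for 16 and lower for 12, with log2 fold changes (LPD minus NPD, on log2(value + 1), here and below) of -0.43 to 0.67 and a median of 0.07, where the median of all genes was 0.00 and 50.5% were higher. In RNA of whole cultures, fewer cells of a type and less RNA per cell cannot be told apart.

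**Figure D2:**
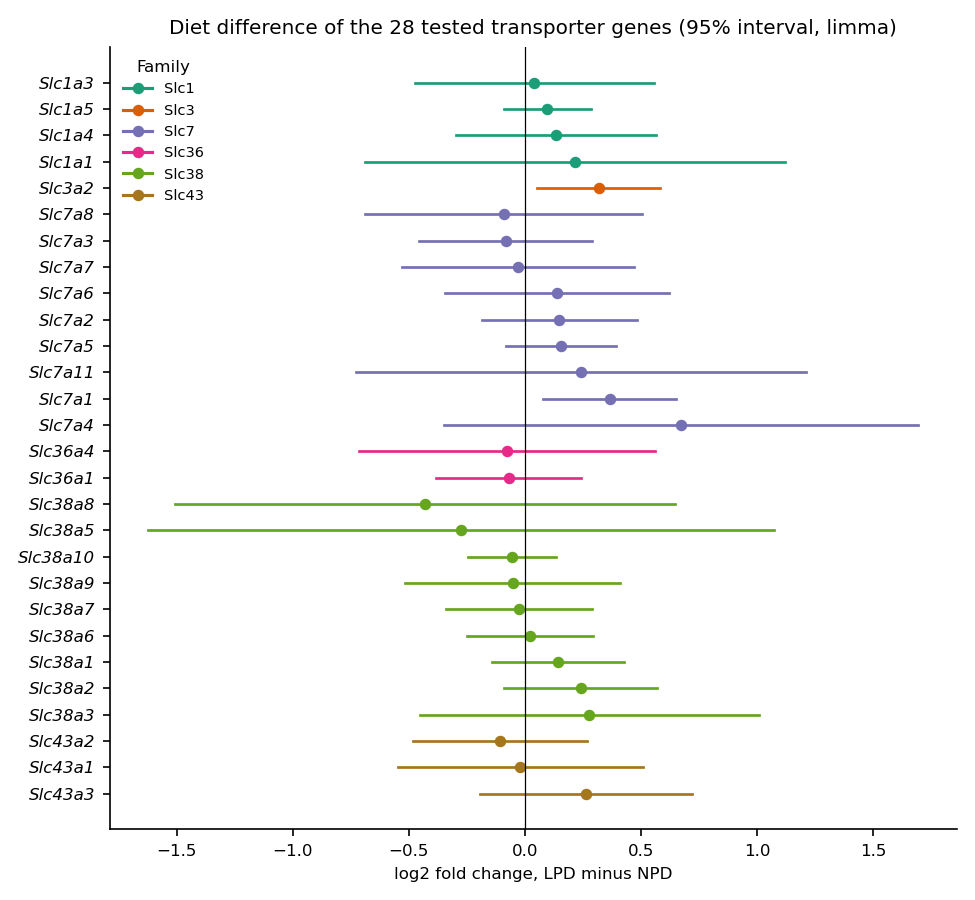
Log2 fold change (LPD minus NPD) of the 28 tested transporter genes with its 95% interval from limma, coloured by family. The intervals of Slc7a1 (0.08 to 0.65) and Slc3a2 (0.05 to 0.58) lie above 0 and the other 26 include it.

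Slc7a1 (ENSMUSG00000041313, chr5:148327410-148399904 on GRCm38, minus strand) encodes the widespread carrier of arginine and lysine. Its normalised values were 2669, 3132, 3191, 3722 and 2188 in LPD lines 1, 4, 6, 20 and 40, and 2369, 1981, 2383, 2581 and 2119 in NPD lines 8, 15, 21, 36 and 51. Thus 4 LPD lines lay above every NPD line, and LPD line 40 lay among the NPD lines. The means were 2980 ± 579 and 2286 ± 236 (SD, n = 5 each), a log2 fold change of 0.37 (SE 0.13), or 1.29-fold. The unadjusted p was 0.0162 in limma (adjusted p = 0.852) and 0.0476 when the lines were permuted exactly between diets (two-sided, on mean log2 values, smallest possible p 0.00794). Over the alternatives of processing the fold change ran from 0.28 to 0.47, the unadjusted p from 0.00121 to 0.0814 and the adjusted p from 0.202, without LPD line 40, to 1.00. The largest unadjusted p came without LPD line 4 and NPD line 15, where the fold change was 0.29. With depth as a covariate the fold change was 0.41.

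Slc3a2 (ENSMUSG00000010095, chr19:8706882-8723369 on GRCm38, minus strand) encodes the heavy chain that most light chains need at the cell surface. It had values of 7353, 7499, 4660, 6310 and 5506 in LPD lines 1, 4, 6, 20 and 40, and 4988, 4556, 5033, 5247 and 4943 in NPD lines 8, 15, 21, 36 and 51. Again 4 LPD lines lay above every NPD line, and the exception was LPD line 6. The NPD lines were close together (4954 ± 251) and the LPD lines spread widely (6266 ± 1211). The log2 fold change was 0.32 (SE 0.12), with an unadjusted p of 0.0225 in limma (adjusted p = 0.921) and of 0.0635 in the exact permutation test. The unadjusted p rose above 0.05 without LPD line 1 (0.0621), LPD line 4 (0.0645) or NPD line 15 (0.0514), and likewise with depth as a covariate (0.0725, limma), after quantile normalisation (0.0600, limma) and by the exact Mann-Whitney test (0.0952). With LPD line 4 and NPD line 15 both left out the fold change was 0.22 and the unadjusted p 0.126 in limma. The difference was larger under other alternatives. The fold change was 0.42 without LPD line 6 (unadjusted p = 0.00149, limma) and 0.36 with array weights (0.00666, limma). Without LPD lines 4, 6 and 40 it was 0.46 (0.00185, limma). The smallest adjusted p under any alternative was 0.510. Slc3a2 was lowest in NPD line 15 and LPD line 6, the lines with the highest fibroblast and the lowest primitive endoderm marker sums. Over the 10 lines its Pearson r was -0.58 with the fibroblast and 0.56 with the primitive endoderm markers (adjusted permutation p = 0.528 for each). Without LPD line 6 and NPD line 15 r was -0.33 and 0.26. The part of these markers in the diet difference was not tested.

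**Figure D3:**
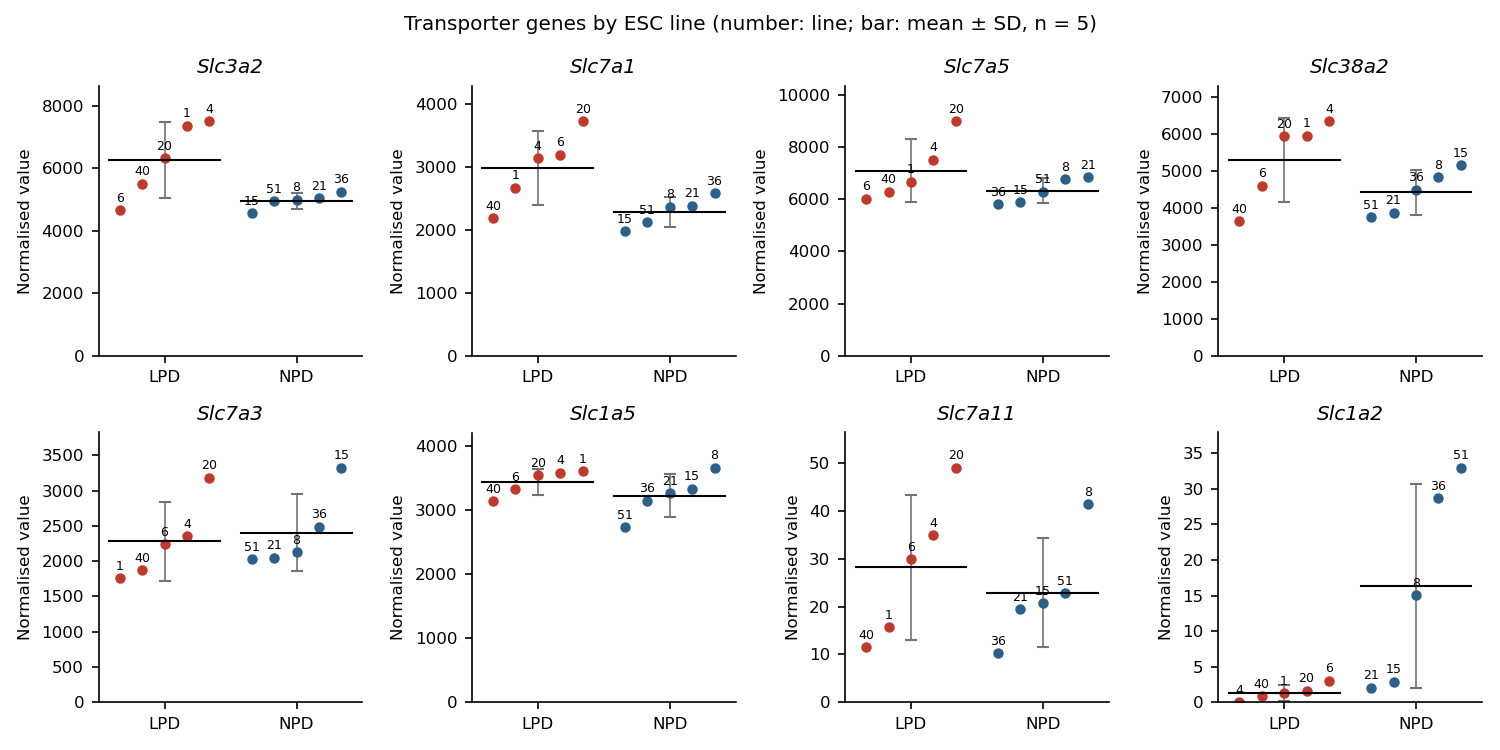
Normalised value of 8 transporter genes in each line (points, with the line number), with the mean (line) and SD (bar) of the 5 LPD and 5 NPD lines. For Slc7a1 and Slc3a2, 4 of 5 LPD points lie above every NPD point, and for Slc1a2, 4 of 5 LPD points lie below every NPD point, all at 3.05 or less.

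None of the 5 tested light chains had an unadjusted p under 0.05. Slc7a5 had values of 6675, 7511, 6014, 8983 and 6281 in LPD lines 1, 4, 6, 20 and 40, and 6775, 5894, 6831, 5802 and 6284 in NPD lines 8, 15, 21, 36 and 51. LPD lines 4 and 20 lay above every NPD line and the other 3 lay among them. The log2 fold change was 0.15 (95% interval -0.08 to 0.39, limma adjusted p = 0.994). Slc7a6 and Slc7a7, both exchangers of cationic for neutral amino acids, had fold changes of 0.14 and -0.03. For Slc7a8, a light chain for neutral amino acids, it was -0.09.

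Slc7a11 was the lowest of the tested genes per kilobase. It had values of 15.7, 34.9, 29.9, 49.0 and 11.5 in LPD lines 1, 4, 6, 20 and 40, and 41.3, 20.6, 19.4, 10.3 and 22.8 in NPD lines 8, 15, 21, 36 and 51. Both diets spread over a range of about the same width, and the fold change of 0.24 had an interval of -0.73 to 1.21 on the log2 scale. In NPD line 8, where it was highest for its diet, the median gene of chromosome 3, on which Slc7a11 lies, was 0.18 higher than over the lines, and the part of this in its value was not tested.

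Per kilobase, the ratio of Slc3a2 to the sum of the 5 tested light chains was 1.05, 0.990, 0.760, 0.656 and 0.825 in LPD lines 1, 4, 6, 20 and 40. In the NPD lines it was 0.731, 0.751, 0.720, 0.751 and 0.731. The NPD lines thus kept nearly the same ratio (0.737 ± 0.0136), while the LPD lines lay on both sides of them (0.857 ± 0.164), with 4 above and LPD line 20 below. LPD line 20 had the highest Slc7a5 value and LPD lines 1 and 4 the highest Slc3a2 values. Slc7a5 made up 66.4% to 79.4% of the light chains in every line. Across the 10 lines Slc3a2 had a Pearson r of 0.60 with Slc7a5 (Spearman rho 0.56, permutation p = 0.0616 and 0.0975, adjusted over 5 light chains 0.308 and 0.446). Within diets r was 0.46, and without LPD lines 1 and 4 it was 0.79. With Slc7a6, Slc7a7, Slc7a8 and Slc7a11 r was 0.02 to 0.37, and none had an adjusted permutation p under 0.05.

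Among the other carriers of arginine and lysine, Slc7a3 had values of 1762, 2357, 2236, 3183 and 1868 in LPD lines 1, 4, 6, 20 and 40, and 2131, 3323, 2050, 2489 and 2031 in NPD lines 8, 15, 21, 36 and 51. The diets overlapped (log2 fold change -0.08, SE 0.17), and without NPD line 15 the fold change was 0.0412. Slc7a3 is X-linked, and its highest value was in NPD line 15, the line with the raised X-linked median. Its value of 3183 in LPD line 20 came next, where the X-linked median was shifted by 0.028. Slc38a5, also X-linked, was at 19.2 in NPD line 15, within the range of the other lines. The part of the X chromosome in these values was not tested. Slc7a2, a carrier related to Slc7a3, had a fold change of 0.15. Slc7a4, a family member without an established substrate, had values of 33.7, 65.3, 20.7, 11.7 and 44.1 in LPD lines 1, 4, 6, 20 and 40, and 32.5, 14.1, 28.7, 15.9 and 9.96 in NPD lines 8, 15, 21, 36 and 51. It had the largest fold change of the 28 (0.67, SE 0.47), with 3 LPD lines above every NPD line. Its unadjusted p in limma was 0.177, and 0.0413 without LPD line 20, where the fold change was 1.00. The fold change was 0.40 without LPD line 4, 0.31 without LPD line 4 and NPD line 15, 0.11 without LPD lines 4, 6 and 40, and 0.0861 with depth as a covariate.

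Of the Slc1 family, 4 of 4 tested genes had a higher mean log2 value in LPD, with log2 fold changes of 0.04 to 0.21 and a median of 0.11, and none had an unadjusted p under 0.05. Slc1a5 had values of 3603, 3582, 3326, 3543 and 3140 in LPD lines 1, 4, 6, 20 and 40, and 3659, 3333, 3260, 3142 and 2732 in NPD lines 8, 15, 21, 36 and 51. It varied little between lines, with a pooled SD of 0.12 on the log2 scale, and 8.66% of all genes tested had a lower SD. Its fold change was 0.10 (95% interval -0.09 to 0.29, limma). Slc1a4 had values of 788, 801, 623, 521 and 510 in LPD lines 1, 4, 6, 20 and 40, and 892, 612, 520, 564 and 411 in NPD lines 8, 15, 21, 36 and 51, with overlapping groups and a fold change of 0.13 (SE 0.20). The glutamate carriers Slc1a1 and Slc1a3 had fold changes of 0.21 and 0.04, the former 0.52 without NPD line 36 and 0.0819 without LPD line 1. The means of the untransformed values of Slc1a3 were 242 in LPD and 243 in NPD.

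Slc1a2 was below the filter, with a mean of 8.85, and was singled out after its values were seen. It was at 1.255, 0, 3.05, 1.64 and 0.865 in LPD lines 1, 4, 6, 20 and 40, and at 15.1, 2.90, 2.06, 28.7 and 33.0 in NPD lines 8, 15, 21, 36 and 51. NPD lines 8, 36 and 51 stood above all other lines, and NPD lines 15 and 21 lay within the LPD range. When every listed gene was tested, its log2 fold change was -2.41 (unadjusted p = 0.00398, adjusted p = 0.659, limma). In LPD line 4, with the lowest depth, 1 read was worth 2.88 in these units, so values this low rest on few reads. An antisense gene, Gm13872, shares 189 exon bases with it.

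Of the Slc38 family, 4 of 9 tested genes had a higher and 5 a lower mean log2 value in LPD, with a median log2 fold change of -0.02. Slc38a2 had values of 5949, 6339, 4595, 5939 and 3631 in LPD lines 1, 4, 6, 20 and 40, and 4826, 5148, 3868, 4492 and 3755 in NPD lines 8, 15, 21, 36 and 51. LPD lines 1, 4 and 20 lay above every NPD line and LPD line 40 below all of them. The fold change was 0.24 (SE 0.15, unadjusted p = 0.137, limma), and without LPD line 40 it was 0.37 with an unadjusted p under 0.05. The unadjusted p of Slc38a2 was also under 0.05 with array weights and without LPD lines 4, 6 and 40. Over the alternatives its fold change ran from 0.17 to 0.44, and the smallest adjusted p was 0.562. Slc38a1, a glutamine carrier of the same transport system, had a fold change of 0.14. Slc38a9, the lysosomal carrier that reports arginine to mTOR, and Slc38a7, which releases glutamine from lysosomes, had fold changes of -0.05 and -0.02. Slc38a10 was the steadiest of the 28, with an SD between lines of 0.12 and a fold change of -0.05.

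Slc38a5, a glutamine carrier that also moves protons, varied the most between lines, with an SD of 1.11 on the log2 scale, higher than that of 96.6% of all genes tested. Its values were 30.4, 2.57, 19.7, 14.7 and 20.99 in LPD lines 1, 4, 6, 20 and 40, and 7.60, 19.2, 10.0, 49.8 and 20.3 in NPD lines 8, 15, 21, 36 and 51. The highest value was in NPD line 36 and the lowest in LPD line 4, the line with the fewest reads. The fold change was -0.27 with all lines and 0.28 without LPD line 4 and NPD line 15. The median SD between lines was 0.33 over the 28 genes and 0.27 over all genes tested.

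In the Slc36 family both tested genes had a lower mean log2 value in LPD, with fold changes of -0.07 (Slc36a1) and -0.08 (Slc36a4), although the mean of the untransformed values of Slc36a4 was 38.14 in LPD and 37.95 in NPD. Slc36a1, which moves amino acids out of lysosomes with protons, had values of 340, 263, 262, 251.9 and 200 in LPD lines 1, 4, 6, 20 and 40, and 274, 292, 255, 297 and 248 in NPD lines 8, 15, 21, 36 and 51. LPD line 1 was above and LPD line 40 below every NPD line. In the Slc43 family, 1 of 3 genes had a higher and 2 a lower mean log2 value in LPD. Slc43a1, a carrier of leucine and other large neutral amino acids, had values of 424, 321, 229, 374 and 193 in LPD lines 1, 4, 6, 20 and 40, and 348, 416, 283, 305 and 192 in NPD lines 8, 15, 21, 36 and 51, a fold change of -0.02 (SE 0.24). Slc43a2, of like function, had a fold change of -0.11, and Slc43a3, a purine base carrier, one of 0.26.

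Of the 8 transporter genes listed as known Atf4 targets (Slc7a1, Slc7a3, Slc7a5, Slc7a11, Slc3a2, Slc1a4, Slc1a5 and Slc38a2), 7 had a higher mean log2 value in LPD, with a median log2 fold change of 0.20 against 0.00 for all genes. Atf4 itself had values of 7444, 8006, 7058, 8594 and 6125 in LPD lines 1, 4, 6, 20 and 40, and 6376, 4678, 5681, 4841 and 5178 in NPD lines 8, 15, 21, 36 and 51. Thus 4 LPD lines lay above every NPD line, and the fold change was 0.48 (SE 0.11, unadjusted p = 9.1e-04, adjusted p = 0.435, limma). Among 10 genes of the amino acid response, Atf4 included, 9 had a higher mean log2 value in LPD, against 50.5% of all genes. An unadjusted p under 0.05 (limma) was found for 5, all higher in LPD, against 2.84% of all genes with all 10 lines. Without LPD line 4 and NPD line 15 it was found for 2. The share of all genes in that fit is not given here, so this count has no background to set it against. The study itself reported Atf4 as increased in LPD, by a test of single transcripts with sleuth and by quantitative RT-PCR. The test here was of values per gene, so its adjusted p is not of the same measure. Both lists were chosen with earlier results of these data known. Their counts are therefore not independent support for a response. Chac1, which degrades glutathione, had a fold change of 1.09 (SE 0.29) and Sesn2, a leucine sensor, one of 0.38 (SE 0.14). Without LPD line 4 and NPD line 15 the fold changes of Atf4, Chac1 and Sesn2 were 0.40, 0.80 and 0.28.

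Over the 10 lines, the log2 values of Atf4 and Slc7a1 had a Pearson r of 0.83 and a Spearman rho of 0.81 (permutation p = 0.00331 and 0.00771, adjusted over 8 genes 0.0163 and 0.0617). Within diets r was 0.67 (adjusted permutation p = 0.0877), and without LPD line 20 and NPD line 15 it was 0.67. For Slc7a5 r was 0.77 and rho 0.73 (adjusted permutation p = 0.0163 and 0.0798), within diets 0.82 (adjusted permutation p = 0.0249), and without the same lines 0.62. For Slc7a11 r was 0.59 over all lines (rho 0.58, adjusted permutation p = 0.102 and 0.119), but 0.80 within diets (adjusted permutation p = 0.0249) and 0.51 without those lines. It was 0.85 in the LPD lines and 0.75 in the NPD lines, where Slc7a11 and Atf4 were both highest in NPD line 8. In the LPD and the NPD lines (n = 5 each) r was 0.88 and 0.35 for Slc7a1, and 0.84 and 0.91 for Slc7a5. For Slc3a2 it was 0.53 and 0.30, for Slc1a5 0.87 and 0.49, and for Slc1a4 0.29 and 0.53. For Slc38a2 it was 0.91 and -0.14, and for Slc7a3 0.75 and -0.70. The within-diet p-values permuted values centred on the diet means over all 10 lines, without allowance for the centring. Slc3a2, Slc1a5, Slc38a2 and Slc1a4 had r of 0.71, 0.64, 0.62 and 0.40, with adjusted permutation p of 0.0617, 0.0798, 0.0941 and 0.287, above 0.05. Within diets their r was 0.42, 0.60, 0.51 and 0.42 (adjusted permutation p = 0.2667, 0.1265, 0.207 and 0.2667). Slc7a3 had r of -0.08 over all lines, 0.07 within diets and 0.30 without LPD line 4 and NPD line 15. With LPD line 4 and NPD line 15 left out, r with Atf4 was 0.75 for Slc7a1, 0.71 for Slc7a5, 0.60 for Slc7a11 and 0.56 for Slc3a2.

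**Figure D4:**
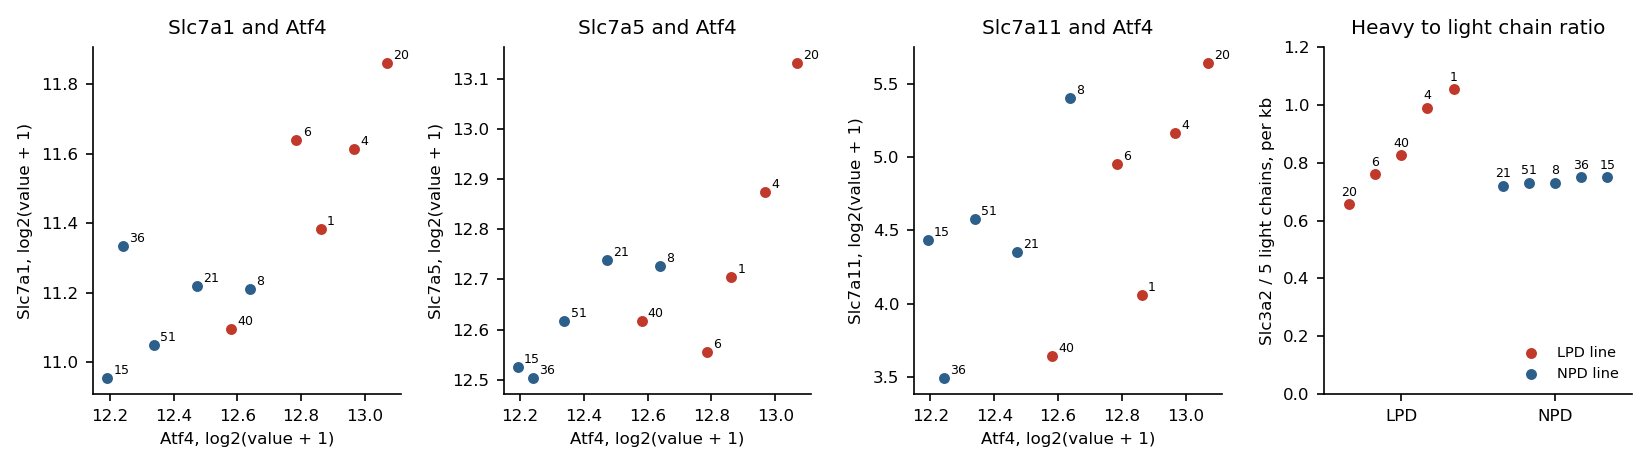
The left 3 panels plot log2(value + 1) of Slc7a1, Slc7a5 and Slc7a11 against Atf4, 1 point per line with its number (LPD red, NPD blue), with Pearson r of 0.83, 0.77 and 0.59. The right panel plots the ratio of Slc3a2 to the 5 light chains per kilobase, from 0.720 to 0.751 in NPD lines and from 0.656 to 1.05 in LPD lines.

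The 28 genes were also set beside the mean log2 values of the primitive endoderm, fibroblast and trophectoderm markers, a choice made after the data were seen. Of 84 relations, 1 had an adjusted permutation p of r under 0.05. Slc7a6 had a Pearson r of 0.90 with the 8 primitive endoderm markers (permutation p = 5.0e-04, adjusted p = 0.0420 by permutation). By Spearman rho, 0.81, it did not pass (adjusted permutation p = 0.439). Within diets r was 0.90, without LPD line 6 and NPD line 15 it was 0.85, and without LPD line 4 and NPD line 15 it was 0.87. Slc7a6 was at 1116, 680, 711, 893 and 892 in LPD lines 1, 4, 6, 20 and 40, and at 613, 470, 938, 1158 and 851 in NPD lines 8, 15, 21, 36 and 51. Its highest values were in NPD line 36 and LPD line 1, which also had the highest sums of these markers (12350 and 14611). With the fibroblast and trophectoderm markers, Slc7a6 had r of -0.74 and -0.64 (adjusted permutation p = 0.28 and 0.528). For Slc38a6 r was 0.80 with primitive endoderm, -0.82 with fibroblast and -0.63 with trophectoderm markers. The adjusted permutation p was 0.132, 0.132 and 0.528. Whether the relation of Slc7a6 is particular to primitive endoderm markers was not tested.

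Other amino acid and peptide carriers, from the Slc6, Slc15, Slc16, Slc17, Slc25, Slc32, Slc66 and sideroflexin families and others, were taken as a list of 37, of which 33 were listed in the table and 24 tested. Of these, 9 had a higher and 15 a lower mean log2 value in LPD, with a median log2 fold change of -0.05. At an unadjusted p under 0.05, 2 were lower and 0 higher (limma), against 2.18% and 2.84% of all genes with all 10 lines. Without LPD line 4 and NPD line 15, 1 was lower and 1 higher, and the shares of all genes in that fit are not given here. Slc6a6, the taurine carrier, had values of 1860, 1566, 1228, 1370 and 1450 in LPD lines 1, 4, 6, 20 and 40, and 1827, 2306, 1907, 2053 and 1548 in NPD lines 8, 15, 21, 36 and 51. Its fold change was -0.37 (SE 0.13, unadjusted p = 0.0127 and adjusted p = 0.839 in limma, exact permutation p = 0.0397). Sfxn5, a mitochondrial carrier, had a fold change of -0.44 (SE 0.20) and Slc6a17, a vesicular carrier of neutral amino acids, one of 0.94 (SE 0.52). With LPD line 4 and NPD line 15 left out the fold changes of Slc6a6, Sfxn5 and Slc6a17 were -0.32, -0.36 and 0.59.

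Some of these genes share exon bases with a gene on the opposite strand, whose reads may not be told apart where strand was not kept. Slc7a7 shares 232 bases with Oxa1l (values 1275 to 1561), Slc3a1 601 with Prepl (803 to 1033), Slc7a4 554 with P2rx6 (0 to 4.33) and Slc1a1 2631 with 4430402I18Rik (0 to 7.85). Slc43a2, Slc7a2, Slc38a10 and Slc38a9 share 922, 635, 367 and 182 bases with non-coding genes, as does Slc1a2 with Gm13872. Values of these non-coding genes are not given here. Slc7a1, Slc3a2, Slc7a5 and Slc38a2 shared none.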

How the data were processed

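RNA sequencing was analysed for 5 LPD and 5 NPD ESC lines, grouped by their titles, each line being 1 replicate. The authors trimmed adaptors with cutadapt, quantified transcripts with Salmon on GRCm38 and tested them with sleuth 0.30.0. The deposited table holds a normalised signal per gene, an estimated count scaled with DESeq2 according to its name. How transcripts were summed to genes is not given in the sources used here. Scaling makes lines comparable only if most genes do not differ, and removes depth. Depth was therefore read from the smallest steps of low values in 4269 genes with 1 transcript. Over all genes 67.5% to 73.6% of low values were whole multiples (tolerance 0.15), so whole reads were not recovered and no count test was run. At this depth, values near that of 1 read (0.729 to 2.88) are imprecise.

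Values were taken as log2(value + 1). Genes whose mean reached 10, 14354 in all, were fitted with limma 3.58.1 (R 4.3.3), without a covariate and with a mean-variance trend, and p-values were adjusted over all of them by Benjamini-Hochberg. The fit was tested on simulated data. Named genes were also tested by two-sided exact permutation, and relations by 100000 permutations. Levels per kilobase used GENCODE M21 on GRCm38, to which 19891 genes were matched by identifier. Other steps ran in Python 3.11.15 (pandas 2.3.3, numpy 2.4.6, matplotlib 3.10.9, scipy 1.17.1).

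Values in every line are given for members with an unadjusted p under 0.05 or without overlap of groups, the highest member per kilobase of each family, known Atf4 targets and the 3 with the largest SD between lines. Other members are given by counts, fold changes and ranges, and up to 3 genes of other lists are named. The members and lists were chosen with earlier results of these data known. Alternatives were other pseudocounts, filters, scalings and tests, array weights, depth as a covariate and lines left out. The numbers of the lines differ between the diets and pair no samples. One gene of these families is not reported here.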

Additional observations from a re-analysis of the deposited data

Results flagged for a closer look

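Each of the 28 tested genes was checked in each diet for a line whose gap to the nearest other line was more than 0.71 of the range (Dixon's 95% value for 5 samples). This flags about 1 in 20 groups by chance, and 2 of 56 groups held such a line. Slc1a1, a glutamate carrier, was at 25.6 in NPD line 36 and at 7.29 to 9.02 in the other NPD lines, a gap of 0.837 of the range, and its log2 fold change of 0.21 was 0.52 without that line. Slc7a8, a light chain for neutral amino acids, was at 41.0 in LPD line 40 and at 90.7 to 111 in the other LPD lines, a gap of 0.795 of the range. Both genes were singled out by these values.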

How the results depend on the processing

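Under 22 alternatives, 608 values were recomputed, of which 543 kept their direction and their side of the threshold, 52 reversed, 9 lost and 4 gained an unadjusted p under 0.05. In 4 of the alternatives the direction could not change, because the fold change came from the same log2 values and lines. These were no filter, a mean of at least 100, limma without a trend and the exact Mann-Whitney test (20 values for the second, 28 for each other). Of the 28 genes, 15 kept their direction throughout, Slc7a1, Slc3a2, Slc7a5 and Slc38a2 among them, and 13 did not. None passed adjustment at 0.1 under any alternative. The count of genes higher in LPD at an unadjusted p under 0.05 was 2 in the main fit. It was 1 after quantile normalisation or with depth as a covariate, and 0 by the exact Mann-Whitney test or without LPD line 4 and NPD line 15. It was 3 with array weights or without LPD lines 4, 6 and 40. With 1 line left out it was 1 to 3 (1 without LPD line 1, LPD line 4 or NPD line 15, and 3 without LPD line 20 or 40). The shares of all genes under these alternatives are not given here. The count lower in LPD was 0, and 1 (Slc1a2) with no filter. The median log2 fold change over the tested genes stayed between 0.02 and 0.19. Log2 fold changes that turned direction were as follows. With totals equalised, Slc38a6 was at -0.014. With array weights, Slc38a6 was at -0.0374 and Slc43a1 at 0.15. With depth as a covariate, Slc7a7 was at 0.0795, Slc36a1 at 0.0134, Slc38a5 at 0.53, Slc38a8 at 0.32, Slc38a9 at 0.0421 and Slc43a1 at 0.18. Without LPD line 4 and NPD line 15, Slc7a3 was at 0.0213, Slc36a4 at 0.0883, Slc38a5 at 0.28, Slc38a6 at -0.0352, Slc38a7 at 0.00118, Slc38a9 at 0.0209 and Slc43a1 at 0.0687. Without LPD lines 4, 6 and 40, an alternative added after seeing the data because of their depth, Slc7a3 was at 0.00439, Slc7a7 at 0.18, Slc7a8 at 0.11, Slc36a1 at 0.10, Slc38a5 at 0.28, Slc38a8 at 0.36 and Slc43a1 at 0.41. With 1 line left out, the fold change ran from -0.17 to 0.14 for Slc1a3, -0.17 to 0.0243 for Slc36a1, -0.30 to 0.0583 for Slc36a4, -0.55 to 0.25 for Slc38a5, -0.074 to 0.0875 for Slc38a6, -0.0854 to 0.0613 for Slc38a7, -0.18 to 0.0478 for Slc38a9, -0.18 to 0.13 for Slc43a1, -0.21 to 0.0412 for Slc7a3, -0.0388 to 0.29 for Slc7a6, -0.23 to 0.11 for Slc7a7 and -0.20 to 0.16 for Slc7a8. The causes of these shifts were not tested. No paired analysis was possible because the diets share no line number.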
